A study of Mus musculus with 31 samples.

Results

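Haemoglobin and the genes that equip a red cell were followed through 21 libraries of sorted pancreatic cells from newborn mice. The genes were taken by name from the deposited tables: the adult beta globins Hbb-b1 and Hbb-b2, the embryonic beta-like globins Hbb-y and Hbb-bh1, the adult alpha globin Hba-a1, the embryonic alpha-like globin Hba-x, the haem enzyme gene Alas2, the membrane anion exchanger gene Slc4a1 and the globin chaperone gene Ahsp. Of these 9 genes, 8 had a row among the 38283 genes of each table, and Ahsp was not analysed here. The second adult alpha globin row, Hba-a2, was read beside them because its coding sequence is nearly that of Hba-a1.

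The pancreas was taken from C57BL/6 mice at postnatal day 2, dissociated with trypsin and sorted by flow cytometry into YFP-positive mesenchymal and YFP-negative non-mesenchymal cells. In every group analysed the animals carried Cre recombinase driven by Nkx3.2, a gene active in the mesenchyme of the developing gut and pancreas, so the engineered allele was meant to be altered in the mesenchyme and its effect on other cells to be read in the non-mesenchymal fraction. Values were available for 6 groups: non-mesenchymal cells of 4 Igf2 controls (Igf2+/+) and 3 Igf2 mutants (Igf2+/fl), and both fractions of 3 H19DMD controls (H19DMD+/+) and 4 H19DMD mutants (H19DMDfl/+), where H19DMD is the imprinting control region of H19 and Igf2. The remaining 10 of the 31 samples, among them all mesenchymal samples of the Igf2 model, were not analysed here. Values are FPKM, which scale fragments by transcript length and by the mapped fragments of the library, so levels of different genes are on a per-length scale, and the absolute depth is unknown.

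Red cells carry oxygen on haemoglobin, which joins alpha-like and beta-like globin chains with haem. In the mouse, red cells made in the yolk sac use embryonic globins such as Hbb-y, Hbb-bh1 and Hba-x, and red cells made later in the fetal liver, spleen and marrow use the adult globins. Circulating red cells of mammals have lost their nucleus, and the youngest of them, reticulocytes, still hold globin messenger RNA, so tissue with blood in it yields globin reads. In a sorted fraction, fewer red cells and less RNA per red cell cannot be told apart.

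The globin genes lie in 2 clusters. Positions are from GENCODE M21 on GRCm38. On the minus strand of chromosome 7 lie Hbb-b1 (chr7:103826534-103828096, annotated as Hbb-bs), Hbb-b2 (chr7:103812524-103813996, annotated as Hbb-bt), Hbb-bh1 (chr7:103841637-103843164) and Hbb-y (chr7:103851749-103853216). On the plus strand of chromosome 11 lie Hba-x (chr11:32276400-32278116), Hba-a1 (chr11:32283511-32284465) and Hba-a2 (chr11:32296489-32297298). All are annotated as protein-coding, and no other gene of the annotation overlaps them. The first 90 coding bases show how far the reads can separate family members. The beta-like genes come first, with capitals at each base that differs from Hbb-b1.

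Hbb-b1: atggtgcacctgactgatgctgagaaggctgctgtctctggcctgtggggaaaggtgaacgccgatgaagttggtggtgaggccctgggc
Hbb-y: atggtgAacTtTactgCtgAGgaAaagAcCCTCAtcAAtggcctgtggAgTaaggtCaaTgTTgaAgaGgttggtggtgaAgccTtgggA
Hbb-bh1: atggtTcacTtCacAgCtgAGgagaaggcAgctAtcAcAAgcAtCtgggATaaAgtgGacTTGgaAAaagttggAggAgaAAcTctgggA

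The alpha-like genes follow, with capitals at each base that differs from Hba-a1.

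Hba-a1: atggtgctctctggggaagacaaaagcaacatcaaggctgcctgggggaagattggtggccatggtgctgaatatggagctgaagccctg
Hba-x: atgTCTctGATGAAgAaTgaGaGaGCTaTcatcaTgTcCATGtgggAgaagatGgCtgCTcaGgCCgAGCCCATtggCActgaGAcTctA

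In this stretch Hbb-y differed from Hbb-b1 at 26 bases, Hbb-bh1 at 29, and Hba-x from Hba-a1 at 44. Over the whole coding sequence the embryonic beta-like genes were 73.87 to 74.32% identical to the adult ones and Hba-x was 61.77 to 62% identical to the adult alpha genes. No run of 50 bases, the length of the reads, was shared exactly between an embryonic and an adult globin. The adult copies are another matter. Hbb-b2 differed from Hbb-b1 at 1 base of 444, and 92.91% of its 50-base windows occurred in both; Hba-a2 differed from Hba-a1 at 1 base of 429, and 87.11% of its windows occurred in both. The split of coding reads between adult copies is therefore uncertain, and the untranslated parts of the transcripts were not compared. Adult and embryonic globins can be separated by coding sequence.

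Adult globin was abundant in the non-mesenchymal fraction and low in the mesenchymal fraction. Hbb-b1 was 2436, 512, 491 and 1126 FPKM in Igf2 controls 1 to 4 and 461, 1149 and 364 FPKM in Igf2 mutants 1 to 3. In the non-mesenchymal H19DMD libraries it was 90.9, 274 and 77.3 FPKM in controls 1 to 3 and 93.6, 414, 763 and 1170 FPKM in mutants 1 to 4. Igf2 control 1 was the highest of these 14 libraries, and the ranges of mutants and controls overlapped in both models. In the mesenchymal libraries Hbb-b1 was 6.04, 7.07 and 5.74 FPKM in H19DMD controls 1 to 3 and 2.35, 0.774, 2.08 and 3.74 FPKM in H19DMD mutants 1 to 4. Every mesenchymal library was below every non-mesenchymal H19DMD library, as were 17.4% of genes tested in controls and 16.6% in mutants. Each of the 4 mesenchymal mutants was below each of the 3 mesenchymal controls, as were 3.77% of genes tested.

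Hbb-b2 repeated this at a lower level. It was 723, 116, 97.1 and 250 FPKM in Igf2 controls, 106, 267 and 97.3 FPKM in Igf2 mutants, 9.17, 68.7 and 19.02 FPKM in non-mesenchymal H19DMD controls and 11.8, 113, 132 and 209 FPKM in non-mesenchymal H19DMD mutants, in order of replicate. In the mesenchymal libraries it was 0.605 FPKM in control 1 and listed at 0 in controls 2 and 3, and it was 0.799, 0, 0.443 and 0.891 FPKM in mutants 1 to 4. The library that was highest for Hbb-b1 in a non-mesenchymal group was also highest for Hbb-b2 in all 4 of those groups.

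Hba-a1, the adult alpha chain, was 394, 94.2, 65.5 and 161 FPKM in Igf2 controls and 104, 169 and 62.1 FPKM in Igf2 mutants. It was 10.98, 45.7 and 18.1 FPKM in non-mesenchymal H19DMD controls and 24.9, 72.8, 96.4 and 140 FPKM in non-mesenchymal H19DMD mutants. The same libraries stood high as for the beta chains: Igf2 control 1, Igf2 mutant 2, H19DMD control 2 and H19DMD mutant 4. In the mesenchymal libraries Hba-a1 was 3.33 FPKM in control 2 and listed at 0 in controls 1 and 3, and it was 3.04, 0, 0.816 and 1.55 FPKM in mutants 1 to 4. Hba-a2 ran from 55.3 to 392 FPKM in the Igf2 libraries and from 7.80 to 145 FPKM in the non-mesenchymal H19DMD libraries.

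**Figure D1:**
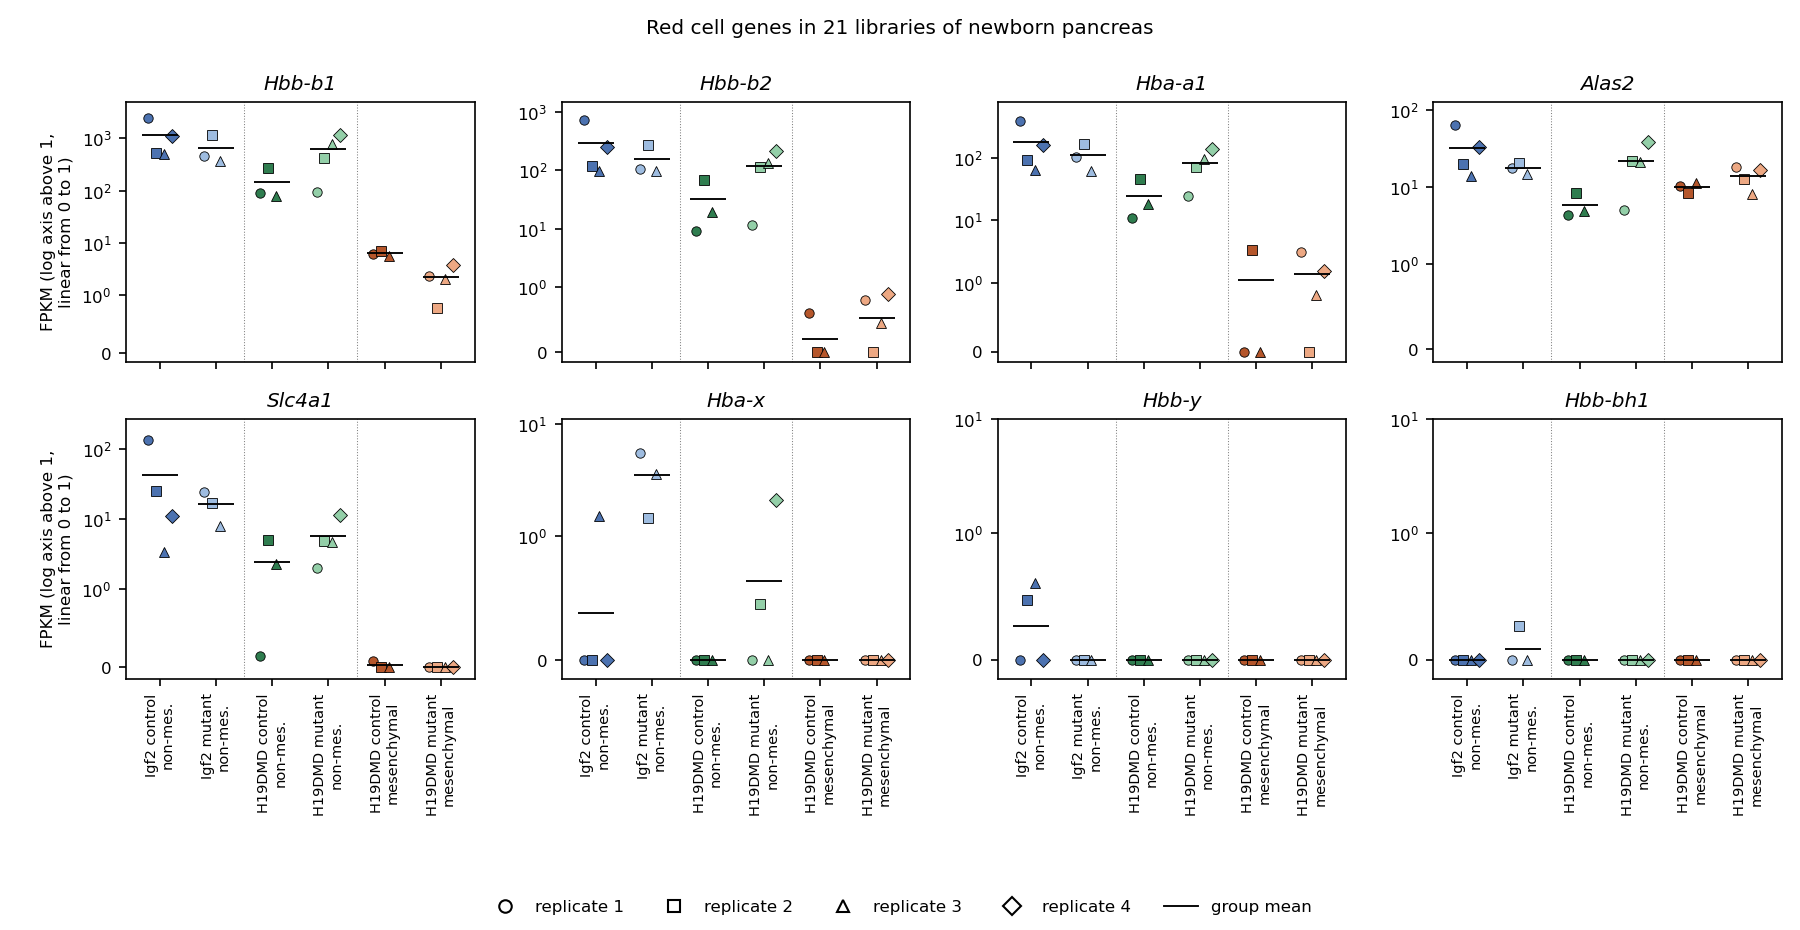
FPKM of the 8 genes with a row in each of the 21 libraries (y axis logarithmic above 1 FPKM and linear below), by group on the x axis; symbols give the replicate number and short lines the group mean. Adult globins separate the fractions, from 0.774 to 7.07 FPKM for Hbb-b1 in mesenchymal libraries and from 77.3 to 2436 FPKM in non-mesenchymal ones, while Alas2 does not and the embryonic globins are at or near 0.

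Embryonic globins were close to the floor of the measurement. Hbb-y was listed at 0 in 19 of 21 libraries and reached 0.474 FPKM in Igf2 control 2 and 0.606 FPKM in Igf2 control 3. Hbb-bh1 was listed at 0 in 20 of 21 libraries and was 0.269 FPKM in Igf2 mutant 2. An exact 0 in these tables can also be a failed estimate, so it is given as listed. The embryonic share of all beta-like globin FPKM was at most 0.103% in a library, and it was 0 in all H19DMD libraries. Hbb-bh2, another gene of the beta cluster, was listed at 0 throughout.

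Hba-x was the embryonic globin with the most signal. It was 5.54, 1.45 and 3.605 FPKM in Igf2 mutants 1 to 3, whereas in Igf2 controls it was 1.51 FPKM in control 3 and listed at 0 in controls 1, 2 and 4. It was 0.454 and 2.11 FPKM in non-mesenchymal H19DMD mutants 2 and 4 and listed at 0 in the other non-mesenchymal H19DMD libraries and in all 7 mesenchymal ones. Mutant 2 was just below control 3, so the Igf2 groups overlapped. Hba-x averaged 0.378 FPKM in the controls and 3.53 FPKM in the mutants, so it passed the filter of 1 FPKM only through the group where it was high. On the log2(FPKM + 1) scale the mutants were higher by 1.74 ± 0.53 (SE; 3 mutants against 4 controls), a difference that did not pass in limma (adjusted p = 0.919), and the exact permutation p over libraries was 0.0857. The size is set by the pseudocount, from 0.37 with 10 to 3.99 with 0.1. Hba-x made up 0.452 to 3.11% of alpha-like globin FPKM in the Igf2 mutants, a mean of 2.18% or, without Hba-a2 among the alpha chains, 3.80%, and 0 to 1.23% in the controls.

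**Figure D2:**
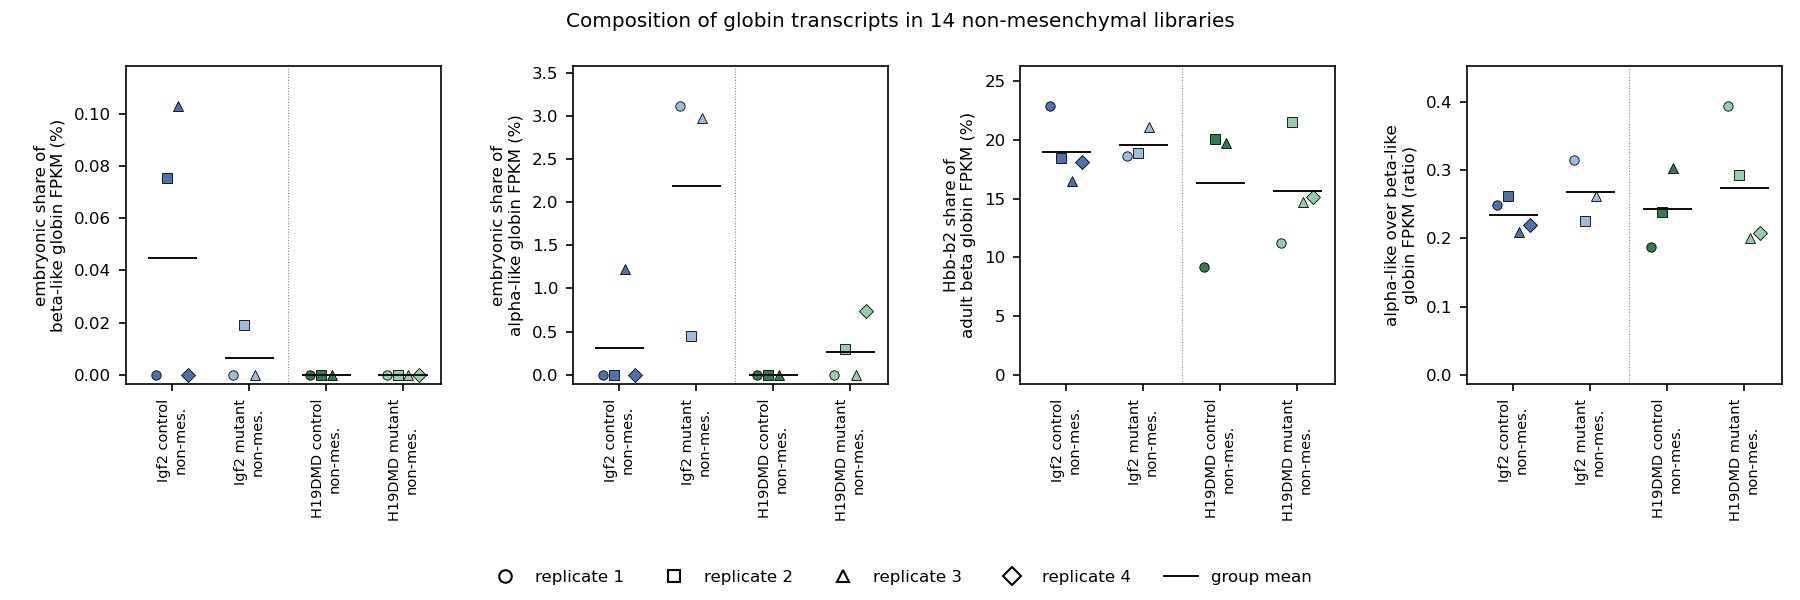
Make-up of globin FPKM in the 14 non-mesenchymal libraries by group on the x axis: embryonic share of beta-like and of alpha-like globin (percent), Hbb-b2 share of adult beta globin (percent) and alpha-like over beta-like globin (ratio); symbols give the replicate and lines the group mean. With Hba-a2 counted among the alpha chains, embryonic shares stay at or below 0.103% and 3.11%, while the ratio stays between 0.188 and 0.393.

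The make-up of adult globin varied less than its amount. All globins together ran from 119 to 3945 FPKM over the non-mesenchymal libraries, while alpha-like over beta-like globin stayed between 0.209 and 0.314 in the Igf2 libraries and between 0.188 and 0.393 in the H19DMD libraries. Group means of that ratio were 0.235 ± 0.025 (SD, n = 4) in Igf2 controls, 0.268 ± 0.044 (SD, n = 3) in Igf2 mutants, 0.243 ± 0.058 (SD, n = 3) in H19DMD controls and 0.274 ± 0.090 (SD, n = 4) in H19DMD mutants, differences smaller than the spread within groups or close to it. These ratios count Hba-a2; without it the same means were 0.126, 0.152, 0.144 and 0.146. Hbb-b2 made up 16.5 to 22.9% of adult beta globin FPKM in the Igf2 libraries and 9.17 to 21.5% in the non-mesenchymal H19DMD libraries. Within the coding sequence this split rests on 1 differing base, and the untranslated parts of the copies were not compared.

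Alas2 encodes the red cell form of the first enzyme of haem synthesis. It was 62.3, 19.4, 13.6 and 32.3 FPKM in Igf2 controls 1 to 4 and 17.6, 20.2 and 14.5 FPKM in Igf2 mutants 1 to 3. In non-mesenchymal H19DMD libraries it was 4.32, 8.24 and 4.86 FPKM in controls and 5.01, 21.8, 20.6 and 38.2 FPKM in mutants, with mutant 1 within the range of the controls. The libraries high for adult globin were high here too, at 17.6 to 62.9 FPKM of Alas2 per 1000 FPKM of Hbb-b1 over the 14 libraries.

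In the mesenchymal libraries Alas2 did not follow globin. It was 10.2, 8.32 and 11.2 FPKM in controls and 17.8, 12.5, 8.02 and 16.3 FPKM in mutants, so that it was above Hbb-b1 in each of the 7. The mesenchymal mean was 170% of the non-mesenchymal mean in controls and 63.8% in mutants, against 4.26% and 0.366% for Hbb-b1. The row needs care: the deposited interval on chromosome X (chrX:150519519-150643878) is shared by Apex2, Alas2 and Pfkfb1, and Apex2, a DNA repair nuclease gene on the opposite strand, overlaps Alas2 (chrX:150547375-150570638, plus strand). Apex2 was 10.7 to 16.9 FPKM in the mesenchymal libraries, and Alas2 was 0.504 to 1.66 times Apex2 there. In the non-mesenchymal libraries the ratio ran from 0.534 to 5.73, highest in H19DMD mutant 4 and next, at 5.10, in Igf2 control 1, the libraries with the most globin of their models. Whether the counting used strand is not given in the sources used here, so reads of Alas2 and Apex2 in their shared stretch cannot be told apart.

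**Figure D3:**
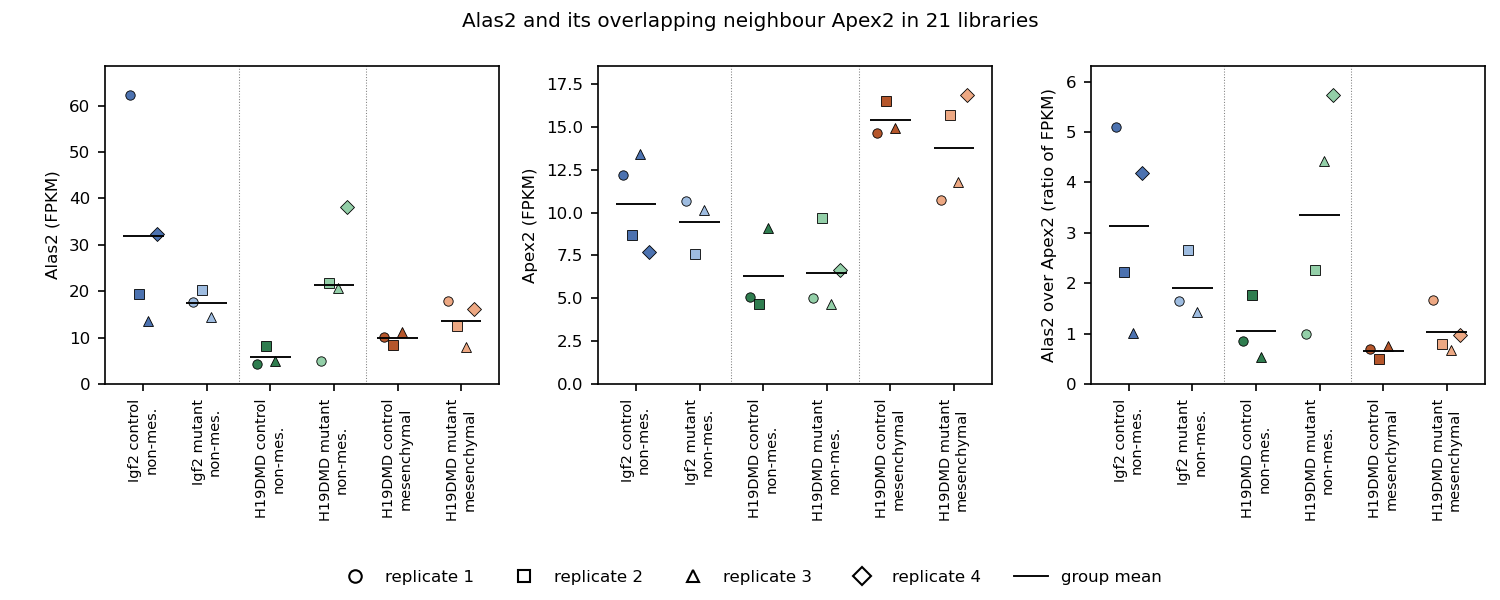
Alas2 (FPKM), Apex2 (FPKM) and their ratio in 21 libraries by group; symbols give the replicate and lines the group mean. In mesenchymal libraries the ratio lies between 0.504 and 1.66, and in non-mesenchymal libraries it reaches 5.73.

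Slc4a1 encodes band 3, the anion exchanger of the red cell membrane. It was 132, 24.7, 3.36 and 11.2 FPKM in Igf2 controls 1 to 4 and 24.2, 17.0 and 8.08 FPKM in Igf2 mutants 1 to 3. It was 0.146, 4.98 and 2.32 FPKM in non-mesenchymal H19DMD controls and 2.00, 4.82, 4.72 and 11.6 FPKM in mutants. In the mesenchymal libraries it was 0.0839 FPKM in control 1 and listed at 0 in the other 6. Igf2 control 1 alone lay far above the rest of its group.

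Slc4a1 did not keep step with globin as Alas2 and Hba-a1 did. Per 1000 FPKM of Hbb-b1 there were 6.84 to 54.4 FPKM of Slc4a1 over the Igf2 libraries and 1.61 to 30.0 over the non-mesenchymal H19DMD libraries. Igf2 control 2 and Igf2 mutant 1, with 512 and 461 FPKM of Hbb-b1, had 48.3 and 52.4 FPKM of Slc4a1 per 1000, while Igf2 control 4, with 1126 FPKM of Hbb-b1, had 9.97. Hemgn, a nuclear protein of red cell precursors, spread in the same libraries and was picked after its values were seen. It was 38.5, 5.93, 0.656 and 1.73 FPKM in Igf2 controls and 10.9, 7.97 and 0.824 FPKM in Igf2 mutants. Igf2 libraries with like amounts of Hbb-b1 thus differed many times over in Slc4a1 and Hemgn, as the plot against Hbb-b1 shows.

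**Figure D4:**
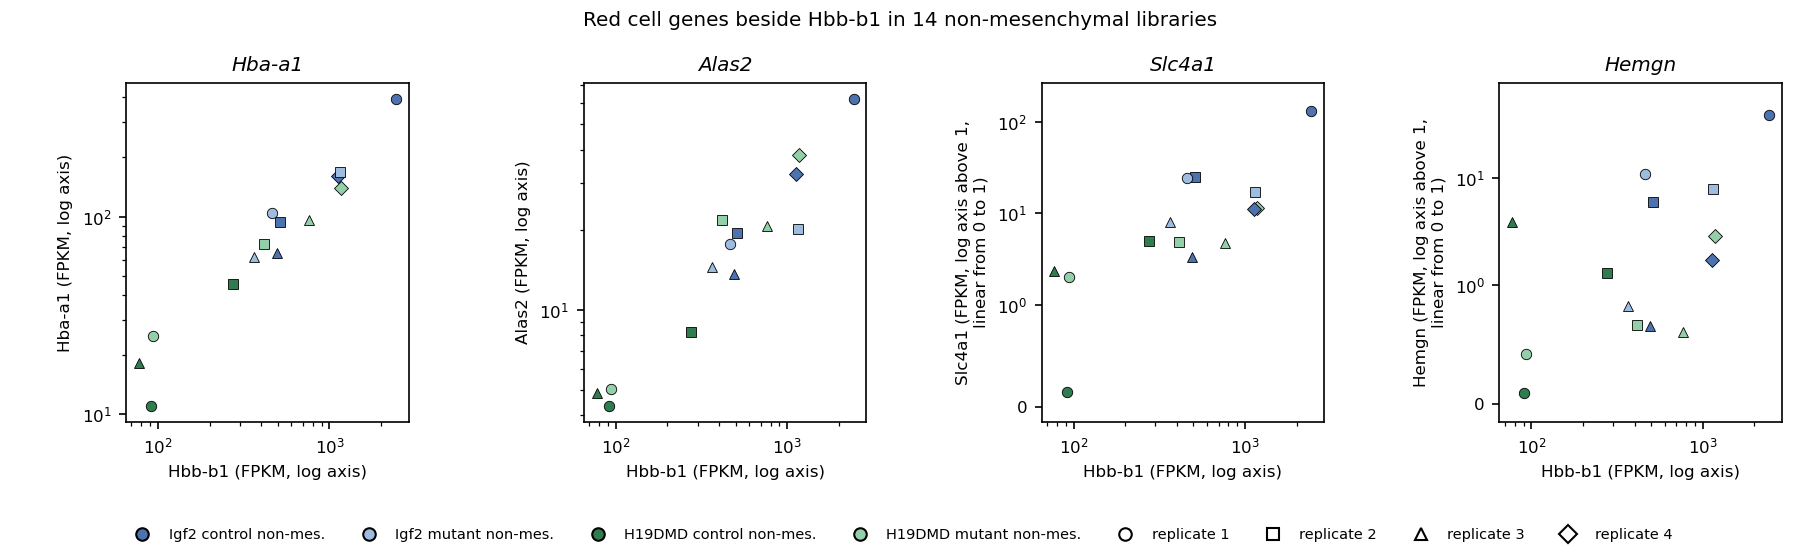
Hba-a1, Alas2, Slc4a1 and Hemgn (FPKM, y axes logarithmic, linear below 1 FPKM where a library is below 1) against Hbb-b1 (FPKM, logarithmic) in the 14 non-mesenchymal libraries; colours give the group and symbols the replicate. Hba-a1 and Alas2 lie along Hbb-b1, whereas Slc4a1 ranges from 3.36 to 132 FPKM and Hemgn from 0.656 to 38.5 FPKM over the Igf2 controls.

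The sequence upstream of the transcription start was available from RefSeq (GRCm38.p6) for 6 of the 8 genes. The stretch of 120 bases before the start is shown for an adult and an embryonic member of each cluster and for Alas2, because the adult genes and Alas2 were high in the same libraries while the embryonic ones stayed near 0. Capitals mark matches to any of 3 short motifs on either strand. The first is GATAA, the core bound by GATA factors. The second is CACCC, a box bound by factors such as Klf1. The third is CCAAT, a common promoter box. In Alas2 the run of capitals near the end holds adjoining matches to CACCC on the other strand. The windows end at the starts given by RefSeq, and all 5 starts lie inside the wider gene bounds of GENCODE M21.

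Hbb-b1 (chr7:103827929-103828048, minus strand): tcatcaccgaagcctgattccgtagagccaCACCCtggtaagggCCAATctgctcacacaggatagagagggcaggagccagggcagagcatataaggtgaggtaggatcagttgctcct
Hbb-y (chr7:103853208-103853327, minus strand): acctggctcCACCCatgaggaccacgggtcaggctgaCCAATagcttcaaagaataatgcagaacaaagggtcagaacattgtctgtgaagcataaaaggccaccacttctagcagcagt
Hba-a1 (chr11:32283552-32283671, plus strand): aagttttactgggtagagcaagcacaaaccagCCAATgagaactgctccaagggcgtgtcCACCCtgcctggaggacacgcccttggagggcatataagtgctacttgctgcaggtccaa
Hba-x (chr11:32276480-32276599, plus strand): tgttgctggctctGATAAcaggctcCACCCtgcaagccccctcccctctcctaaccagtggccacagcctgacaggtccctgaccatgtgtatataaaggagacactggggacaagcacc
Alas2 (chrX:150547297-150547416, plus strand): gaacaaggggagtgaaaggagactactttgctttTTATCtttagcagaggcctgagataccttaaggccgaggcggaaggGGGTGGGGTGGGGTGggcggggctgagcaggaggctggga

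CACCC was in all 5 of these windows, against 31.7% of 32851 RefSeq promoter windows of the same length. CCAAT was in Hbb-b1, Hbb-y and Hba-a1, against 21.3% of windows, and GATAA in Hba-x and Alas2, against 10.5%. The motifs do not divide the adult from the embryonic genes: Hbb-b1 and Hbb-y both held CACCC and CCAAT. A match is a string of letters and was not tested as a binding site.

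The comparison of Igf2 mutants with Igf2 controls asks whether non-mesenchymal cells change when mesenchymal Igf2 is deleted. Of the 8 genes, 6 passed the filter (a mean of 1 FPKM or more), and none passed the test (limma, Benjamini-Hochberg adjusted over all 17441 genes tested), where 0.0631% of all genes did; 1 of the 6 had an unadjusted p under 0.05, and that was Hba-x, which the mutants alone lifted over the filter. The other 5 had lower means of log2(FPKM + 1) in mutants. Hbb-b1 differed by -0.66 ± 0.66 (SE) with a 95% interval of -2.21 to 0.90, and Alas2 by -0.62 ± 0.48 with an interval of -1.76 to 0.52. Both intervals hold 0. Slc4a1 differed by -0.37 ± 1.08, with an interval of -2.92 to 2.19.

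Without Igf2 control 1 the signs of Slc4a1 and Hba-a1 turned, to differences of 0.53 and 0.04 on the log2 scale, and those of Hbb-b1, Alas2 and Hbb-b2 shrank to -0.18, -0.23 and -0.0099. The genes of the red cell membrane and its skeleton, among them ankyrin (Ank1), leaned more on that library: 14 of 14 tested had lower means in the mutants, and 6 of 14 without control 1. Their summed level was 316 FPKM in control 1, 56.6 to 119 FPKM in controls 2 to 4 and 58.8 to 105 FPKM in the mutants. Summed markers of other cells also differed between the groups: the summed level of 10 acinar genes was 29222 to 42215 FPKM in the controls and 84002 to 98171 FPKM in the mutants, with 1 or 2 of the 10 genes listed at 0 per library, and that of 12 leukocyte genes was 901 to 1722 FPKM and 1748 to 2392 FPKM, with none listed at 0. No gene of either list passed in limma, with 7 of 9 acinar and 1 of 12 leukocyte genes tested at an unadjusted p under 0.05. The part of these differences in the red cell values was not tested.

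The comparison of H19DMD mutants with controls asks the same of a model that the series describes as overexpression of Igf2. In the non-mesenchymal fraction 5 of the 8 genes were tested and none passed in limma, where 0.0677% of 16239 genes did; Hba-a1 and Alas2 had an unadjusted p under 0.05. All 5 had higher means in the mutants. Of the 51 genes tested on the other red cell lists, 27 had higher and 24 lower means, with a median log2 difference of 0.03 against 1.70 for the 5, and of 0.05 over all genes. Membrane genes were 4 higher and 5 lower, haem synthesis genes 5 and 7, late red cell genes 7 and 6 and globin switching regulators 1 and 4. Erythroid transcription factors were 6 higher and 1 lower, iron uptake genes 3 and 1, and Hba-a2 was higher. Hbb-b1 averaged 610 ± 463 FPKM (SD, n = 4) in mutants and 147 ± 110 FPKM (SD, n = 3) in controls, and the difference was 1.79 ± 0.89 (SE) on the log2 scale, with an interval of -0.30 to 3.87 and an adjusted p of 0.894 in limma. Hba-a1 differed by 1.70 ± 0.67 and Alas2 by 1.48 ± 0.61, with the same adjusted p of 0.894 in limma. Exact permutation p-values were 0.114 for Hbb-b1 and Hba-a1 and 0.0857 for Alas2, where 0.0286 is the smallest that 4 against 3 libraries allow. The mutants themselves ranged from 93.6 to 1170 FPKM of Hbb-b1, and mutant 1 lay between controls 1 and 2.

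Summed markers of other blood cells overlapped between these groups. The summed level of 12 leukocyte genes was 561 to 958 FPKM in non-mesenchymal controls and 617 to 1018 FPKM in mutants, with all 12 above 1 FPKM in each library. Of the 12, 6 were higher and 6 lower in mutants, none passed in limma, and 5 had an unadjusted p under 0.05, against 868 of all 16239 genes. The summed level of 10 platelet and megakaryocyte genes was 28.1 to 68.5 FPKM in controls and 28.1 to 123 FPKM in mutants, with 1 to 5 of the 10 listed at 0.

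Markers of the pancreatic cells of the fraction differed beside these values. The summed level of 10 endocrine genes was 19645, 29781 and 27035 FPKM in controls 1 to 3 and 20309, 15363, 12943 and 11028 FPKM in mutants 1 to 4, with none listed at 0. Mutant 1 lay within the range of the controls and mutants 2 to 4 lay below it. Of the 10 endocrine genes 9 had lower means in mutants, with 4 at an unadjusted p under 0.05, while 8 of 8 acinar genes tested had lower and 8 of 8 ductal genes higher means. No gene of these 3 lists passed in limma. The part of these differences in the red cell values was not tested.

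In the mesenchymal fraction 3 of the 8 genes were tested and none passed in limma, where 0.0694% of 15856 genes did; Hbb-b1 had an unadjusted p under 0.05. Hbb-b1 averaged 6.28 ± 0.70 FPKM (SD, n = 3) in controls and 2.24 ± 1.21 FPKM (SD, n = 4) in mutants. The difference was -1.25 ± 0.35 (SE) on the log2 scale with an adjusted p of 0.927 in limma and an exact permutation p of 0.0571. Hba-a1 differed by 0.35 ± 0.72, and by -0.00075 without mesenchymal control 1 or 3, so it shows no direction. Hbb-b2, under 1 FPKM in each of these libraries, is too low to compare. All globins together were 6.64 to 10.4 FPKM in controls and 0.774 to 7.52 FPKM in mutants, ranges that overlap.

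Whether the H19DMD effect differed between fractions was tested as an interaction. None of 5 genes passed in limma, where 0.0117% of 17105 genes did, and Hbb-b1 had the 1 unadjusted p under 0.05. The effect on Hbb-b1 was lower by 3.04 ± 1.02 (SE) in mesenchymal than in non-mesenchymal cells on the log2 scale, with an adjusted p of 0.755. The intervals for Hbb-b2 (-3.97 to 1.22), Hba-a1 (-3.55 to 0.86), Alas2 (-2.65 to 0.45) and Slc4a1 (-2.75 to 0.53) hold 0.

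The fractions themselves differed strongly. In H19DMD controls 3 of 5 tested genes were lower in mesenchymal cells in limma, where 10.3% of 16732 genes tested were lower. Hbb-b1 fell by 4.11 ± 0.49 (SE) on the log2 scale with an adjusted p of 0.00236. Hbb-b2 fell by 4.37 ± 0.71 with an adjusted p of 0.00776, and of 0.0564 with a pseudocount of 10. Hba-a1 fell by 3.76 ± 0.76 with an adjusted p of 0.0174. The Hba-a1 call was lost when any 1 of 4 libraries was left out: mesenchymal control 1 or 3, or non-mesenchymal control 2 or 3, with adjusted p from 0.0529 to 0.0600. Slc4a1 differed by -1.46 ± 0.64 with an adjusted p of 0.166, and without non-mesenchymal control 1, where it was 0.146 FPKM, the difference was -2.12 with an adjusted p of 0.0214. Alas2 went the other way, by 0.71 ± 0.27, with an adjusted p of 0.124.

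In H19DMD mutants 4 of 5 tested genes were lower in mesenchymal cells in limma, where 15.1% of 16767 genes tested were lower. Hbb-b1 fell by 7.15 ± 0.74 (SE) with an adjusted p of 0.000179. Hbb-b2 fell by 5.75 ± 0.81 with an adjusted p of 0.00101, and Hba-a1 fell by 5.10 ± 0.59 with an adjusted p of 0.000361. Slc4a1 passed with an adjusted p of 0.00227, and it was listed at 0 in all 4 mesenchymal mutants. These 4 calls held in each fit that left out 1 library. With mesenchymal values this low, the sizes depend on the pseudocount: with pseudocounts of 10 and 0.1 the differences were -1.79 and -6.91 for Hbb-b2 and -1.54 and -6.01 for Hba-a1 in controls, and -3.18 and -7.38 for Hbb-b2 and -2.87 and -6.41 for Hba-a1 in mutants. Alas2 differed by -0.39 ± 0.55 with an adjusted p of 0.637, and by -0.93 to -0.025 over the fits that left out 1 library. With 3 against 3 libraries the exact permutation p can go no lower than 0.1, and with 4 against 4 no lower than 0.0286; the adult globins reached both limits. Hbb-b2 and Slc4a1, under 1 FPKM in every mesenchymal library, passed the filter only through the non-mesenchymal libraries, so the counts of 3 and 4 genes are a description.

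**Figure D5:**
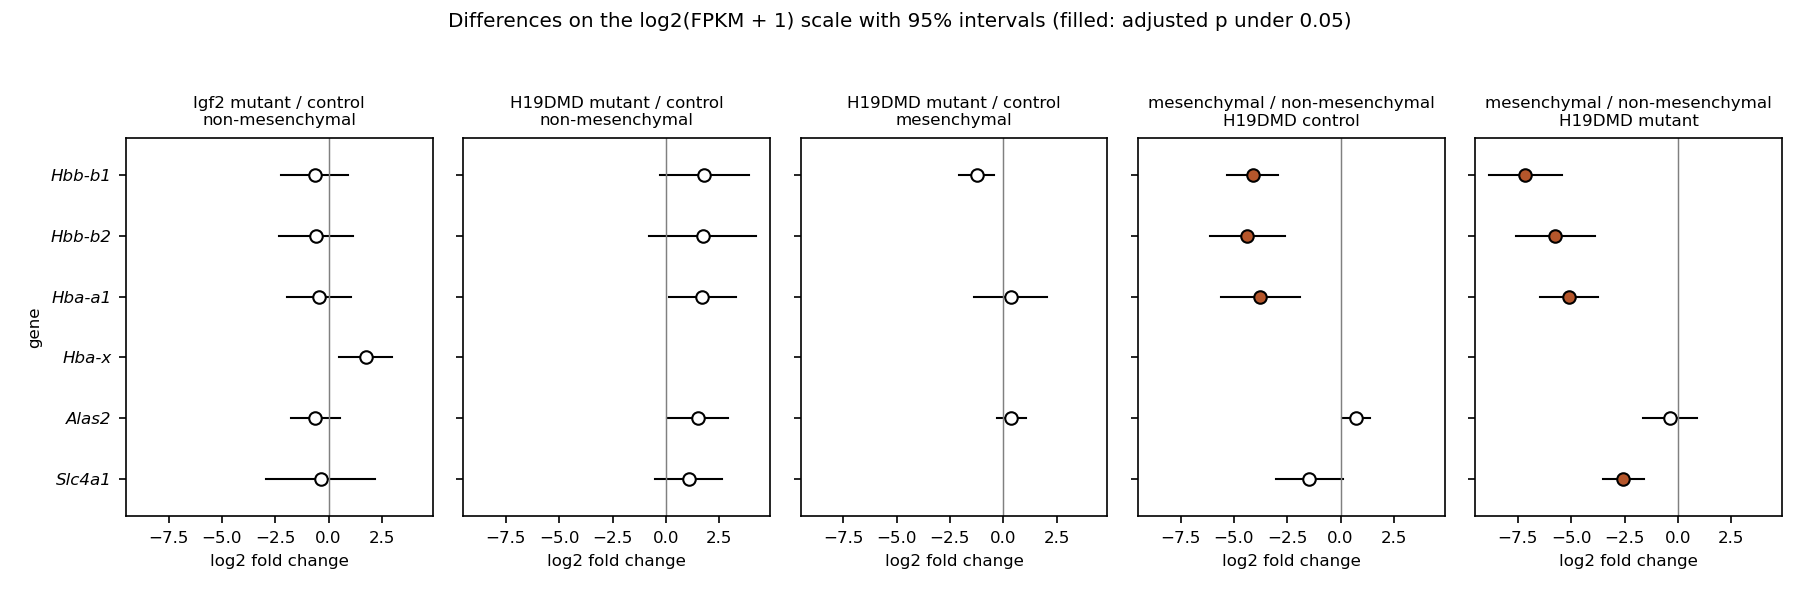
Log2 fold change on the log2(FPKM + 1) scale (x axis, 95% interval as a line) of the genes tested in each of 5 comparisons; filled points passed an adjusted p under 0.05 in limma. The genes that passed are in the 2 comparisons of fractions: Hbb-b1, Hbb-b2 and Hba-a1 in both, and Slc4a1 in the mutants.

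The low globin of the mesenchymal libraries can be set beside genes of other non-mesenchymal cells. As a percentage of the non-mesenchymal mean, all globins together were 3.57% in mesenchymal control libraries and 0.522% in mutant libraries. The non-mesenchymal control mean leans on control 2, with 425 FPKM of all globins against 119 and 125 FPKM in controls 1 and 3. Without that library the percentage in controls would be higher. The acinar list was at 1.36 and 1.90%, the endocrine list at 0.528 and 0.511%, and the leukocyte list at 3.23 and 5.99%. Some red cell genes, named after their values were seen, were listed at 0 in all 7 mesenchymal libraries. The blood group gene Kel was one, at 0 to 2.85 FPKM in non-mesenchymal H19DMD libraries. Car1, Trim58, Gata1 and Tfr2 were others, but none of these exceeded 0.733 FPKM in a non-mesenchymal H19DMD library, so their zeros do not separate the fractions. Only 2 of the 14 membrane genes were at 0 in all 7. How globin reads came to be in the mesenchymal libraries was not tested.

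Other genes of the red cell programme were read from fixed lists of haem synthesis, the membrane, iron uptake, late red cells, erythroid transcription factors, globin switching and further globins, 66 genes in all. None passed in limma in a comparison of mutants with controls: 0 of 61 tested in the Igf2 model, 0 of 39 in mesenchymal and 0 of 51 in non-mesenchymal H19DMD cells, with 2, 0 and 5 at an unadjusted p under 0.05. None of 47 passed for the interaction, with 5 at an unadjusted p under 0.05. Between fractions, 10 of 45 tested were lower and 5 higher in mesenchymal control libraries, and 14 of 45 were lower and 2 higher in mesenchymal mutant libraries. Over all genes, 10.3% were lower and 12.4% higher in controls, and 15.1% lower and 13.5% higher in mutants. Some of the list genes counted as lower, such as Hba-a2, passed the filter only through the non-mesenchymal libraries.

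The most abundant genes that passed were lower in mesenchymal cells, and many serve other cells too. Tfrc, the transferrin receptor that brings in iron, averaged 5.14 FPKM in mesenchymal and 44.5 FPKM in non-mesenchymal controls, and fell by 2.92 ± 0.42 (SE) with an adjusted p of 0.00463 in limma. Epb41, protein 4.1 of the membrane skeleton, averaged 12.9 and 29.6 FPKM and fell by 1.17 ± 0.22. Slc25a39, a mitochondrial carrier, fell by 1.30 ± 0.34, and Fam46c fell by 2.46 ± 0.28. Bpgm, the enzyme that makes the haemoglobin effector bisphosphoglycerate, fell by 1.04 ± 0.28. In the mutants Prdx2, a peroxidase abundant in red cells, averaged 58.7 FPKM in mesenchymal and 115 FPKM in non-mesenchymal libraries and fell by 0.99 ± 0.23. There Epb41 fell by 2.06 ± 0.37, Tfrc fell by 3.03 ± 0.27 and Bpgm fell by 2.18 ± 0.36. Fam46c fell by 2.50 ± 0.34. Hba-a2 averaged 0.358 FPKM in mesenchymal controls and 0.540 FPKM in mesenchymal mutants, against 18.3 and 81.4 FPKM in the non-mesenchymal groups through which alone it passed the filter.

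The genes that were higher in mesenchymal controls, named after their values were seen, were Steap3 (iron reduction in endosomes), Gypc (glycophorin C), Alas1 (the housekeeping counterpart of Alas2), Ube2l6 and Blvrb. Steap3 averaged 11.4 FPKM in mesenchymal and 1.01 FPKM in non-mesenchymal controls, and Gypc 11.9 and 1.43 FPKM. Steap3 and Gypc also passed in the mutants, at 9.21 against 1.08 FPKM and 10.1 against 1.19 FPKM. Of 12 haem synthesis genes tested, 1 was lower and 1 higher in controls, and 1 lower and 0 higher in mutants, no larger a share than among all genes.

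The genes most like adult globin over the 14 non-mesenchymal libraries were found by the root mean square difference between log2(FPKM + 1) of a gene and that of the mean of Hbb-b1, Hbb-b2 and Hba-a1, each centred within its table. Of 9993 genes at a mean of 5 FPKM or more in both tables, the nearest were Hba-a2 at 0.161, then Hbb-b1, Hba-a1 and Hbb-b2 at 0.183 to 0.237, which enter the mean themselves, and then Alas2 at 0.417. The next were Ube2l6 at 0.593, a ubiquitin-conjugating enzyme, Slc25a37 at 0.653, the mitochondrial iron importer mitoferrin, Epb41 at 0.821 and Map1lc3a at 0.838, a protein of autophagy. The median over all genes ranked was 1.22. Slc25a37 was 106, 20.9, 14.1 and 25.5 FPKM in Igf2 controls 1 to 4 and 7.61, 15.01, 23.2 and 30.7 FPKM in non-mesenchymal H19DMD mutants 1 to 4. Like the globins, it was highest in Igf2 control 1 of the Igf2 libraries and in H19DMD mutant 4 of the non-mesenchymal H19DMD libraries.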

How the data were processed

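RNA of sorted cells was isolated on RNeasy Micro columns, and after Ovation V2 amplification single reads of 50 bases were sequenced, per the labels' protocols. The authors deposited 1 table of FPKM values for each model, per the file headers. TopHat2 2.0.8, Cufflinks 2.2.1 and the build GRCm38 are named, with no role, per the submitters' processing notes. The tables were normalised separately, so tests were made within a table. Samples were grouped by their labels.

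A gene was tested if its mean over both groups' libraries reached 1 FPKM. The test was two-sided, with a variance trend, on log2(FPKM + 1) (limma 3.58.1, R 4.3.3), with Benjamini-Hochberg adjustment over all genes and calls at 0.05. This scale understates changes of low genes. Exact permutation tests over libraries, two-sided and on the same scale, stand beside single genes. The script was checked on simulated data. Nothing in the labels says that replicates are separate animals, so p-values measure only the spread between these samples. FPKM carry no read counts, so values have no counting interval.

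The genes and lists were chosen with earlier results of these data known. Named were all member genes, list genes past the threshold (the 6 most abundant where more passed) and the 5 non-members most like adult globin. Coding sequences are from GENCODE M21 transcripts (the longest open reading frame) and promoters from RefSeq. Alternatives were other pseudocounts, filters, scaling, no trend, a replicate block, long transcripts only and leaving out each library. Some genes of the lists are not reported here by name.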

Additional observations from a re-analysis of the deposited data

Results flagged for a closer look

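Over 17 checks of a gene in a group of 4 libraries, made on FPKM without logarithms, 2 found a value far from the other 3. Chance gives about 1 in 20 such checks if values are independent and normally distributed. Several of these genes were high in the same libraries, so that rate is only a rough guide. Slc4a1 was 132 FPKM in Igf2 control 1, against 3.36 to 24.7 FPKM in the other controls; adult globins and Hemgn were also highest in that library. Hba-x was 1.51 FPKM in Igf2 control 3 and listed at 0 in the other 3 controls; beside 3 zeros any value above 0 stands apart in this check, so it carries no weight. Hbb-y also had its highest value in control 3, at 0.606 FPKM.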

How the results depend on the processing

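None of these red cell genes passed in a comparison of mutants with controls, or for the interaction, under any alternative run. Between fractions 2 to 4 of them passed in controls and 3 or 4 in mutants, where the filter at 5 FPKM dropped Slc4a1. Without Igf2 control 1 the differences of Hba-a1 and Slc4a1 between Igf2 mutants and controls turned to 0.0436 and 0.529, and without Igf2 mutant 3 that of Slc4a1 turned to 0.0416. Without mesenchymal control 1 or 3 the difference of Hba-a1 between mesenchymal mutants and controls turned to -0.000753. Over all fits without 1 library these differences ran from -0.814 to 0.0436, from -1.12 to 0.529 and from -0.000753 to 0.704, and none was called. With a pseudocount of 10 the adjusted p of Hbb-b2 between fractions in controls was 0.0564. With the member globins alone the embryonic share of alpha-like globin in Igf2 mutants was 3.80%, against 2.18% with Hba-a2, and alpha-like over beta-like globin was 0.126 and 0.152 in Igf2 controls and mutants and 0.144 and 0.146 in H19DMD controls and mutants; leaving Hba-a2 out of the alpha chains makes this change by construction.

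The counts of all genes called moved more. They were 11, 11 and 11 for the 3 comparisons of mutants with controls (Igf2, mesenchymal H19DMD and non-mesenchymal H19DMD), with 0 to 37, 1 to 27 and 0 to 34 over the alternatives. They were 3785 (2448 to 4234) and 4802 (3148 to 5120) between fractions in controls and mutants, and 2 (0 to 9) for the interaction. Median-ratio scaling moved the median of all genes from 0.08 to -0.03 between fractions in controls and from -0.11 to -0.0048 for the interaction. Correlations of same-numbered deviations between the fractions were 0.0174 to 0.0674 in controls and 0.00738 to 0.0419 in mutants. For other-numbered libraries of the 2 fractions they ran from -0.0514 to 0.0309. Values this small do not settle whether replicate numbers pair the fractions. Between mutants and controls the same-numbered correlations were -0.0506 to 0.0329. With the replicate block 2, 7, 5, 2660, 4141 and 3 genes were called, in the same order, and no call of the red cell genes was altered. Leaving out the controls of the Igf2 model 1 at a time, chosen after seeing the data, gave 6 of 14 lower membrane genes without control 1 and 14 of 14 without controls 2, 3 or 4. Values below about 1 FPKM, such as those of the embryonic beta-like globins, are too low to compare between groups.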

Other observations

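Genes that clear free haemoglobin and haem lay outside the comparisons above. Hmox1, the enzyme that breaks down haem, was 6.8, 21.3, 26.4 and 22.4 FPKM in Igf2 controls 1 to 4 and 17.5, 11.5 and 48.3 FPKM in Igf2 mutants 1 to 3. In the non-mesenchymal H19DMD libraries it was 3.9, 8.7 and 8.7 FPKM in controls and 5.5, 10.3, 15.1 and 22.2 FPKM in mutants. The library with the most globin had the least Hmox1 in the Igf2 model and the most among the non-mesenchymal H19DMD libraries. Of 8 genes on this list 6 were tested in each non-mesenchymal comparison of mutants with controls and none passed in limma, with 2 at an unadjusted p under 0.05 in the Igf2 model and 1 in the H19DMD model. Between fractions in mutants 3 of 6 tested were lower in mesenchymal cells in limma, where 15.1% of all genes tested were lower. Slc40a1, the iron exporter ferroportin, fell by 0.75 ± 0.18 (SE) with an adjusted p of 0.0174, and Hmox1 fell by 1.52 ± 0.48 with an adjusted p of 0.0469. Hp, the haemoglobin-binding protein haptoglobin, was the third, but it entered the test only through the non-mesenchymal libraries: it was listed at 0 in all 4 mesenchymal mutants and was 1.07, 3.93, 2.06 and 4.27 FPKM in non-mesenchymal mutants 1 to 4.

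Pf4, a chemokine of platelets that macrophages can also express, was 38.6, 83.8, 183 and 160 FPKM in Igf2 controls 1 to 4 and 117, 68.6 and 316 FPKM in Igf2 mutants 1 to 3, so the library with the most globin had the least Pf4 of its model. Other platelet genes were low there: Ppbp was listed at 0 and Gp9 was 0.3 FPKM in control 1. Pf4 was listed at 0 in all 3 mesenchymal controls and was 16.1, 63.0 and 46.9 FPKM in non-mesenchymal controls 1 to 3. Itgb3, an integrin of platelets and other cells, rose in mesenchymal controls by 2.16 ± 0.26 with an adjusted p of 0.00258 in limma. These genes were picked after their values were seen.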
